A study of Mus musculus with 9 samples.

Results

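Supporting cells surround the hair cells of the organ of Corti and, like them, arise from prosensory progenitors of the cochlear floor that express Sox2. They differ from the hair cells in keeping Sox2 and in using Notch signals received from their neighbours, and several of their genes are shared with glia. Open chromatin was examined at 7 listed supporting cell genes. Prox1 is a homeodomain transcription factor of pillar and Deiters' cells. Ngfr (p75) is a neurotrophin receptor of pillar cells. By immunofluorescence at E16 the authors also saw it in nerve fibers and in Claudius cells, which flank the domain of Sox2 expression. Cdh4 is a cadherin. Slc1a3 (GLAST) is a glutamate transporter of glia and of the cells around inner hair cells. Fabp7 is a fatty acid-binding protein of glia, and S100a1 is a calcium-binding protein. No gene with the listed name Lfng2 was in the annotation, so 6 of the 7 could be examined.

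ATAC-seq, in which a transposase inserts adapters into accessible DNA, was carried out on sorted cells of the mouse cochlear duct from the strain B6;129S-Sox2tm2Hoch/J, in which EGFP is knocked into Sox2. The strain label was the same for all 9 samples. Sox2-EGFPhigh+ cells, gated at the highest EGFP signal, were collected at E12, E14.5 and E16 (2 samples each). Sox2-EGFP- cells, gated at the lowest signal, were collected at E14.5 (1 sample) and E16 (2 samples). The sort followed Sox2 and therefore took prosensory cells, not supporting cells alone, and each Sox2-EGFPhigh+ replicate was a litter of pooled ducts. Cell type tags of 3 of the E16 samples went against their titles and source names, and the titles were followed.

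Each sample is a list of the peaks found in it. The authors kept a peak only if a second sample of its cell type had one at the same place. The lists held 13817 and 7577 peaks at E12, 66332 and 22962 in E14.5 Sox2-EGFPhigh+ cells and 39314 and 65870 in E16 Sox2-EGFPhigh+ cells. For Sox2-EGFP- cells the numbers were 23302 (E14.5), 23848 (E16) and 23899 (E16). The lists hold no read counts, and depth was not used here. The 2 longest lists (E14.5 replicate 1 and E16 replicate 2, both Sox2-EGFPhigh+) hold more peaks by list length alone, and a peak missing from the short E12 lists was not taken as closed chromatin. Peaks from any of the 9 lists no more than 100 bp apart were joined, which gave 69354 regions. A region belonged to each gene whose protein-coding transcription start site was nearest to one of its summits, within 500 kb. The 6 genes had 50 regions (0.0721% of all), with 174 peaks nearest to them. Peak height was compared by list percentile, the rank of a peak by −log10 p as a percentage of its list, so that a low percentile is a high peak.

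The sequences shown are 200 bp around the highest summit of the best prosensory region of each gene, that is, the region without a Sox2-EGFP- peak that was called in most Sox2-EGFPhigh+ samples and stood highest in their lists. S100a1 had no such region. A region upstream of Slc1a3 with Sox2-EGFP- peaks alone is added, chosen after its values were seen. Bases are from NCBIM37 (mm9), and capitals mark a match to one of the 7 short words reported here, searched on both strands and named for families of transcription factors.
Prox1, 356 kb upstream, intergenic, chr1:192350754-192350953, plus strand: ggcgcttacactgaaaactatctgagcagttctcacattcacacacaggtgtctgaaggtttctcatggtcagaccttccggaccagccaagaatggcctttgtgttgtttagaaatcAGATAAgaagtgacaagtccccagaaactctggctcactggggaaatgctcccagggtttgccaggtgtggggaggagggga
Ngfr, 1.34 kb downstream of the start site, intron of Ngfr, chr11:95447606-95447805, plus strand: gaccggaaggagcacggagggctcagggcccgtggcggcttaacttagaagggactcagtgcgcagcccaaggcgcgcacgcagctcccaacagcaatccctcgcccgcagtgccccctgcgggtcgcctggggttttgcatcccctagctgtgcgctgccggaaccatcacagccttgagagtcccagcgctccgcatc
Cdh4, 97.4 kb downstream of the start site, intron of Cdh4, chr2:179274660-179274859, plus strand: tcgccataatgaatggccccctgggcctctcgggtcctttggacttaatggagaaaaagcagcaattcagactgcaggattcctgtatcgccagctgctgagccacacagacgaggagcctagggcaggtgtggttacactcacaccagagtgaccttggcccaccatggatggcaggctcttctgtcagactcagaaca
Slc1a3, 77.9 kb downstream of the start site, intergenic, chr15:8582384-8582583, plus strand: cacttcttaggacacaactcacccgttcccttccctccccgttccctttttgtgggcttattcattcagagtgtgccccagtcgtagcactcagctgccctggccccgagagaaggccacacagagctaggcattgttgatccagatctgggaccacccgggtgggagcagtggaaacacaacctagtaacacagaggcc
Slc1a3, 23.1 kb upstream, intergenic, chr15:8683788-8683987, plus strand: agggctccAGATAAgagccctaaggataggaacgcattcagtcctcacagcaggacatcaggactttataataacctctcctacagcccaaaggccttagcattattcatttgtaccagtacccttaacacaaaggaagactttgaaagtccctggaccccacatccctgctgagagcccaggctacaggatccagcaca
Fabp7, 41.0 kb upstream, intergenic, chr10:57463597-57463796, plus strand: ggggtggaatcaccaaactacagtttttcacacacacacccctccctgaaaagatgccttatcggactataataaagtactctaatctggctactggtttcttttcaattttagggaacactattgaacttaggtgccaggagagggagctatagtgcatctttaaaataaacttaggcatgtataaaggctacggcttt

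Of these windows, the one upstream of Prox1 and the Sox2-EGFP- window upstream of Slc1a3 held the Gata word, and the other 4 held none of these words. Across the 50 regions the Gata word (AGATAA) was in 9 windows (18.0%), against 8.30% of 69351 windows of the same length over all regions. Of the 9, 5 were near Prox1, 3 near Slc1a3 and 1 near Cdh4. The Rbpj word (GTGGGAA) was in 5 windows, or 10% against 4.79% of all, and the Sox word (CCATTGT) was in 3 windows, or 6.0% against 4.87%. The Tead word (GGAATG) was in 3 windows, or 6.0% against 13.2%. The Nfi word (TTGGCA) was in 3 windows, or 6.0% against 12.2%, and the Rfx word (GTTGCCA) was in 1 window, or 2.0% against 3.64%. The Grhl word (AACCNGTT), in 1.89% of all windows, was in none. Median GC content was 53.75% in the windows of the listed genes and 53.5% in all. These counts are small, and a word match is a description of letters, not of a bound factor.

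Most regions near the supporting cell genes had peaks in Sox2-EGFPhigh+ cells alone, as most regions of the genome did. They numbered 35 of 50 (70.0%), against 65.5% of all regions. Both cell types had a peak in 9 regions (18.0%, against 28.8%), and Sox2-EGFP- cells alone in 6 (12%, against 5.63%). The share of prosensory regions near the background is no result about these genes. It also moved with list length. With the 20000 highest peaks of each E14.5 and E16 list it was 50% (14 of 28 regions, against 35.4% of all), and with the 7500 highest of every list 37.5% (3 of 8, against 34.6%). The regions with Sox2-EGFP- peaks alone were then 25.0% (7 of 28, against 17.3%) and 50% (4 of 8, against 11.5%). In the full lists, 17 of the 50 regions (34.0%) rested on the 2 longest lists alone, against 35.4% of all regions.

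**Figure D1:**
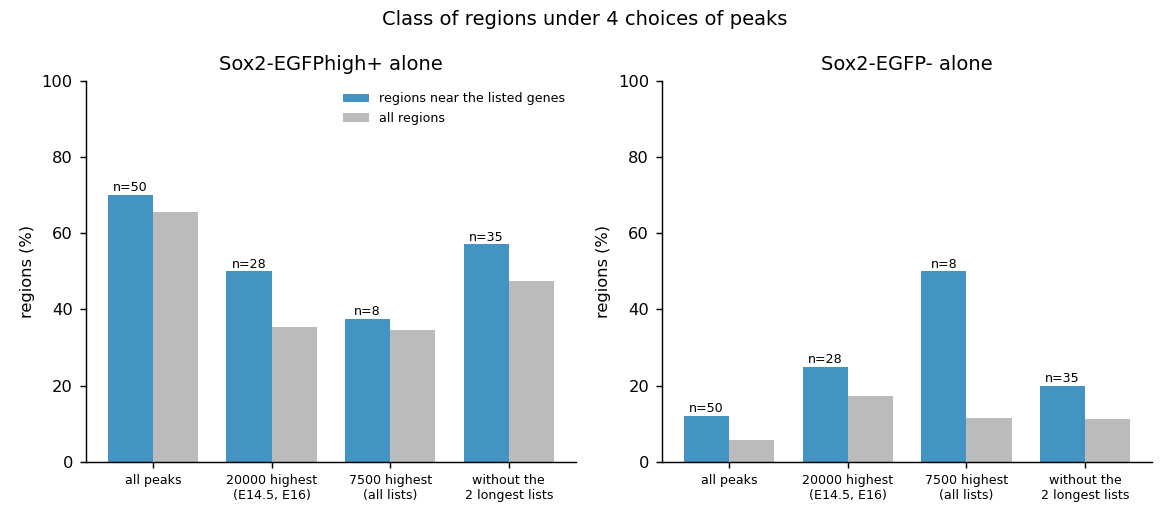
Share of regions with peaks in Sox2-EGFPhigh+ cells alone (left) and Sox2-EGFP- cells alone (right), in percent, for regions near the listed genes (blue, with their number) and all regions (grey) under 4 choices of peaks. The blue bar at left goes from 70.0% with all peaks to 37.5% with the 7500 highest of each list.

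The classes followed distance from the start site, near the listed genes much as over all regions. Of the 6 regions within 1 kb of a start site, 1 had Sox2-EGFPhigh+ peaks alone (all regions at that distance, 18.2%). At 1 to 10 kb it was 3 of 4 (75.8%), at 10 to 100 kb 18 of 25 (78.6%) and at 100 to 500 kb 13 of 15 (80.8%). Of the 6 regions with Sox2-EGFP- peaks alone, 5 lay at 10 to 100 kb (20% of the 25, against 6.89%). All 4 later Sox2-EGFPhigh+ samples and no Sox2-EGFP- sample had a peak in 6 regions (12%, against 7.33%), of which 3 are near Slc1a3, 2 near Cdh4 and 1 near Prox1. An E12 peak was in 4 regions (8.0%, against 20.1%). They were the Ngfr and Cdh4 start sites, the region 77.9 kb downstream of the Slc1a3 start site and the one 97.4 kb into Cdh4. By distance, 2 were within 1 kb (33.3%, against 57.8%). The other 2 were at 10 to 100 kb (8.0%, against 9.8%). On the map, the start sites of 5 of the 6 genes had peaks in both cell types, and that of Fabp7 in Sox2-EGFPhigh+ cells alone.

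**Figure D2:**
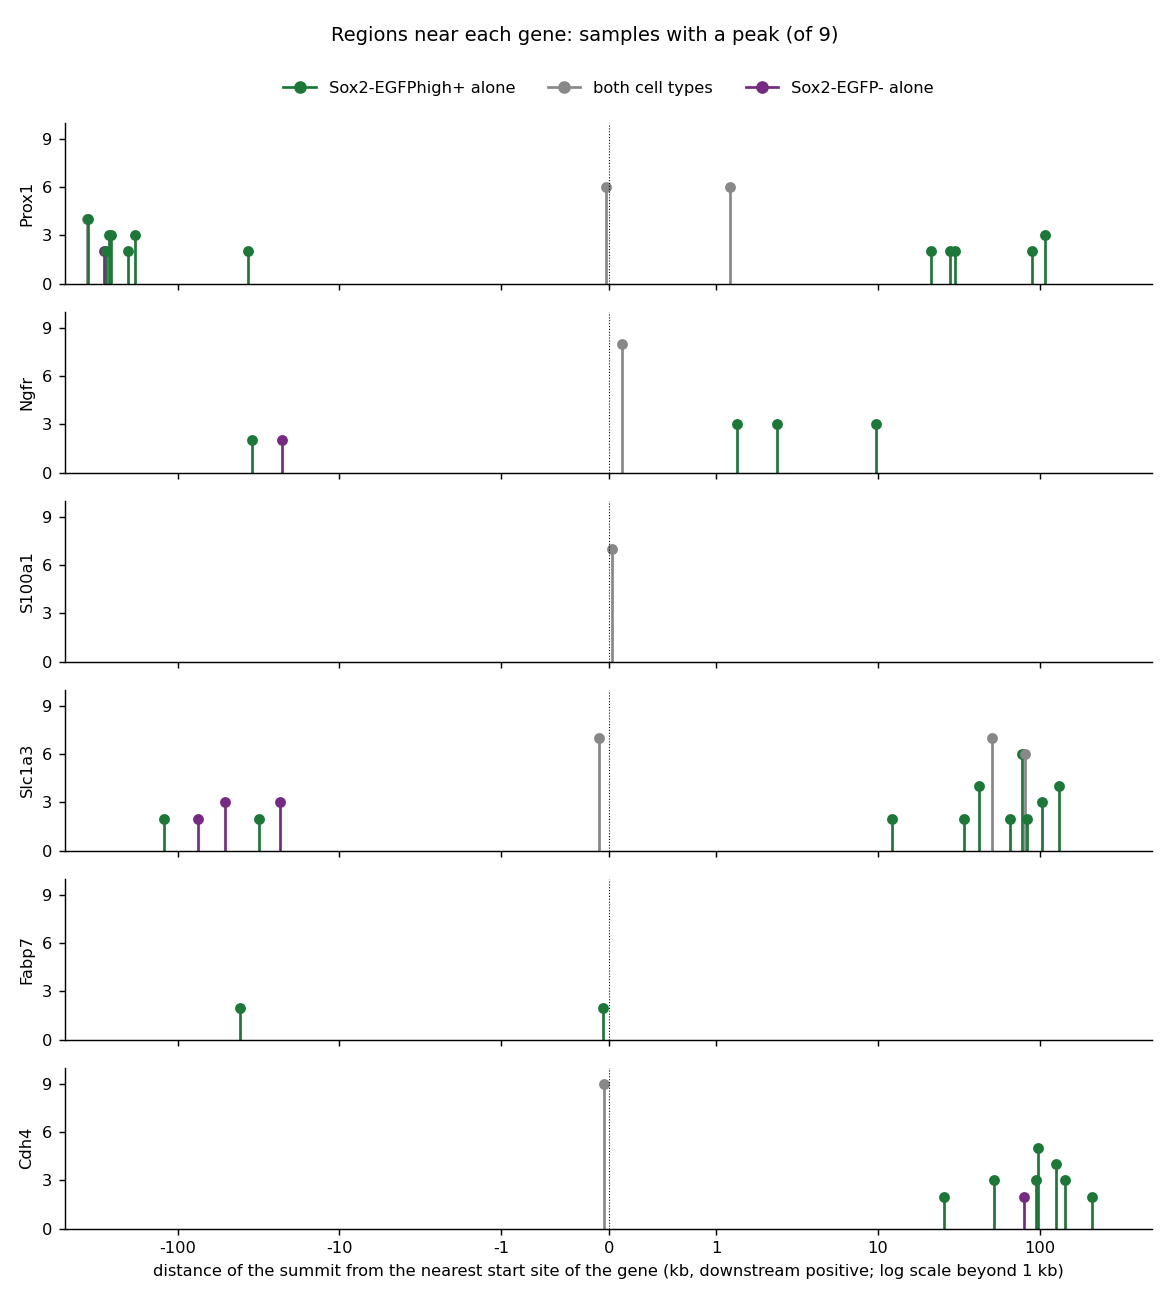
Position of each region as the distance of its highest summit from the nearest start site of the gene (kb, log scale beyond 1 kb), with height giving the number of samples with a peak of 9. Green, peaks in Sox2-EGFPhigh+ cells alone; grey, in both; purple, in Sox2-EGFP- cells alone. The region at the Cdh4 start site had a peak in all 9 samples.

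The question asked of each gene was whether more of its regions had a peak in Sox2-EGFPhigh+ than in Sox2-EGFP- cells at E14.5 and E16. Counted by region, Cdh4 alone of the listed genes had more in every Sox2-EGFPhigh+ sample than in any Sox2-EGFP- sample. This pattern was found in 13.9% of 17583 genes. By the summits nearest to it, S100a1 too had peaks in 4 Sox2-EGFPhigh+ samples and 0 Sox2-EGFP- samples, which was not tested. Cdh4 had 8 and 3 regions with a peak at E14.5 and 6 and 8 at E16 in Sox2-EGFPhigh+ cells, and 2, 1 and 2 in the Sox2-EGFP- samples. The difference in means was 4.58 (6.25 ± 2.36, SD, n = 4, against 1.67 ± 0.577, SD, n = 3; two-sided exact permutation test, p = 0.0571, adjusted p = 0.4275). Prox1 had 15 and 2 at E14.5 and 7 and 14 at E16, against 4, 4 and 2 in Sox2-EGFP- cells, so that E14.5 replicate 2 fell among the Sox2-EGFP- samples. Its difference was 6.17 (9.50 ± 6.14 against 3.33 ± 1.15, SD; exact permutation p = 0.2, adjusted p = 0.5604).

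Slc1a3 had 13 and 5 at E14.5 and 7 and 13 at E16, against 6, 6 and 5, a difference of 3.83 (exact permutation p = 0.2857, adjusted p = 0.6432). Ngfr had 5 and 0 at E14.5 and 4 and 5 at E16, against 2, 1 and 2, a difference of 1.83 (exact permutation p = 0.2286, adjusted p = 0.6123). Fabp7 had 2 and 0 at E14.5 and 1 and 1 at E16, and 0 in every Sox2-EGFP- sample (exact permutation p = 0.1429, adjusted p = 0.4275). The groups overlapped for these 3 genes, through E14.5 replicate 2. The 1 region of S100a1 had a peak in all 7 samples, but its Sox2-EGFP- peaks were all nearest to the neighbouring gene S100a13. At E12 there were 2 and 1 regions with a peak for Cdh4, 1 and 1 for Slc1a3 and for Ngfr, and 0 for Prox1, Fabp7 and S100a1.

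With 4 samples against 3 there are 35 assignments, and 0.0286 is the smallest p they allow. After Benjamini-Hochberg adjustment over all genes, 0 of 17583 (0%) passed 0.05, with 0.4275 the smallest. At an unadjusted p under 0.05 there were 864 genes (4.91%), 776 of them higher in Sox2-EGFPhigh+ cells, and 0 of the listed genes. The 864 became 1370 of 15810 genes with the 20000 highest peaks of each later list and 318 of 11757 with the 7500 highest of every list. They became 417 of 17448 at a -log10 q of at least 5 and 276 of 17583 with E12 included. The median difference was 2.83 regions over the 6 listed genes and 0.75 over all genes, but a difference in counts grows with the number of regions, of which the median gene had 2. Without the 2 longest lists the differences were 1.17 for Prox1, 2.83 for Cdh4, 0.333 for Slc1a3 and 0.333 for Ngfr, an alternative chosen after seeing the data. With the 20000 highest peaks of each list they were 0 for Prox1, 0.083 for Slc1a3 and -0.333 for Ngfr. For Cdh4 the difference was then 1.58, at the smallest p the test allows (exact permutation p = 0.0286, adjusted p = 0.3297, and 0.2348 to 1 over all alternatives). At that setting 1370 of the 15810 genes tested had an unadjusted p under 0.05. With the 7500 highest the difference of Cdh4 was -0.083, so the differences in full lists moved with list length. They also moved with the assignment: with all transcripts the difference of Prox1 was 0.25, and within 100 kb it was 2 for Prox1, 1.58 for Slc1a3 and 2.33 for Cdh4.

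**Figure D3:**
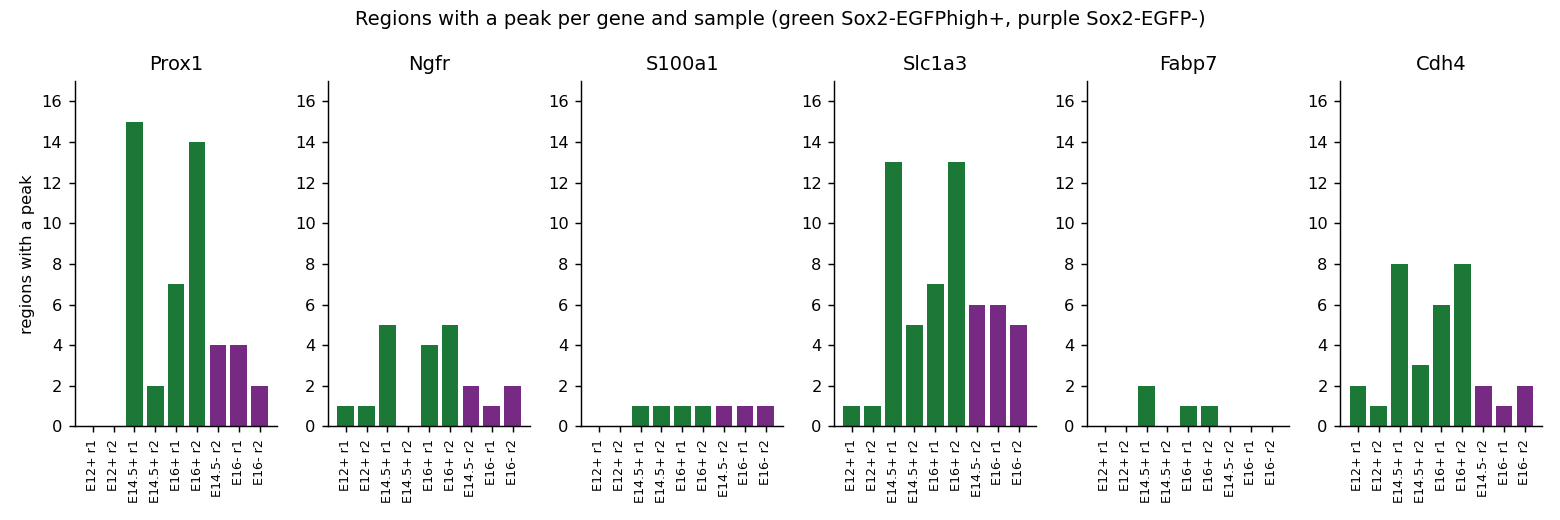
Number of regions with a peak for each gene in each sample (bars start at 0), in Sox2-EGFPhigh+ (green) and Sox2-EGFP- cells (purple); r1 and r2 are the replicates. The tallest bars are those of the 2 longest lists, at 15 and 14 for Prox1.

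Prox1 had 16 regions, more than 97.7% of genes, over a territory of 495 kb of DNA nearest to its start site. Per 100 kb that was 3.23 regions, a density that exceeded 45.4% of genes. The region over its start site on chromosome 1 had a peak in 3 Sox2-EGFPhigh+ samples and all 3 Sox2-EGFP- samples. Its list percentile was 36.8 in E14.5 replicate 1, 46.6 and 31.5 at E16, and 63.2, 68.8 and 42.4 in the Sox2-EGFP- samples, so the start site was open in both cell types. By rank alone, in lists of unequal length, every Sox2-EGFP- sample stood higher (14733, 16411 and 10126, against 24400, 18319 and 20730). The percentiles overlapped, and the height was not tested. The region 356 kb upstream was called in all 4 later Sox2-EGFPhigh+ samples and in no other. Its percentile was 13.8 and 88.1 at E14.5 and 47.6 and 14.8 at E16, with −log10 p of 58.39, 6.14, 14.501 and 24.05. It was thus among the higher peaks of the 2 longest lists and near the end of the list of E14.5 replicate 2. The regions 259 kb upstream and 109 kb downstream lacked a peak in E14.5 replicate 2 alone of the later Sox2-EGFPhigh+ samples, with mean percentiles of 35.1 ± 12.1 and 32.2 ± 18.9 (SD, n = 3). The region 287 kb upstream had Sox2-EGFP- peaks alone, at percentiles 70.5 (E14.5) and 78.6 (E16 replicate 1).

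Cdh4 had 9 regions, 8 of them in its introns. The region at its start site on chromosome 2 was the 1 region of 50 with a peak in all 9 samples, against 7.31% of all regions. It stood at percentiles 79.8 and 67.2 at E12, 28.2 and 43.5 at E14.5 and 20.2 and 10.9 at E16 in Sox2-EGFPhigh+ cells, and at 48.4, 26.6 and 45.3 in Sox2-EGFP- cells. Of the 8 intron regions, 7 had Sox2-EGFPhigh+ peaks alone, near the share of all regions at such distances (78.6% and 80.8%). The one 97.4 kb from the start site was called in E12 replicate 1 (percentile 84.8) and in all later Sox2-EGFPhigh+ samples (23.9, 41.0, 37 and 14.52), and in no Sox2-EGFP- sample. Its fold enrichment was 4.32 at E12, 7.03 and 3.86 at E14.5 and 5.79 and 6.81 at E16. The region 126 kb into the gene was called in the 4 later Sox2-EGFPhigh+ samples, at 28.0, 48.2, 29.0 and 17.2, and the one at 143 kb in 3 of them (20.7, 79.3 and 60.1). The intron region at 79.7 kb had Sox2-EGFP- peaks alone, at 62.7 (E14.5) and 76.8 (E16 replicate 2).

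Slc1a3, the glutamate transporter, had 16 regions and 3 of the 6 with Sox2-EGFP- peaks alone. All 3 lie upstream on chromosome 15. The region 23.1 kb upstream was called in all 3 Sox2-EGFP- samples and no other, at percentiles 13.7 at E14.5 and 34.7 and 26.4 at E16, with −log10 p of 22.4, 21.7 and 16.8. The region 51.1 kb upstream was called in the same 3 samples, at 21.4, 43.9 and 34.9, and the one 74.8 kb upstream in the E14.5 sample (28.3) and E16 replicate 1 (89.5). None of the 3 was called in the Sox2-EGFPhigh+ lists, the 2 longest included, and the last stood near the end of the list of E16 replicate 1. The 2 other upstream regions, at 31.2 and 121 kb, were called in the 2 longest lists alone and are named after their values were seen. Downstream, no region had Sox2-EGFP- peaks alone. The region at 77.9 kb was called in all 6 Sox2-EGFPhigh+ samples, at 30.1 and 77.7 at E12, 19.1 and 34.4 at E14.5 and 45.3 and 35.8 at E16, and in no Sox2-EGFP- sample. The regions at 42.4 and 133 kb were each called in the 4 later Sox2-EGFPhigh+ samples, with mean percentiles of 47.1 ± 35.8 and 54.0 ± 33.0 (SD, n = 4). The start site was called in 7 samples, at 18.3 to 38.6 in Sox2-EGFPhigh+ and at 30.6, 69.6 and 19.9 in Sox2-EGFP- cells, so its heights overlapped.

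Ngfr, the neurotrophin receptor, had 6 regions on chromosome 11. Its start site was called in 8 samples, all but E14.5 Sox2-EGFPhigh+ replicate 2. It stood near the end of the E12 lists (98.7 and 91.8), at 32.0, 37.2 and 17.7 in later Sox2-EGFPhigh+ samples and at 65.9, 44.4 and 51.4 in Sox2-EGFP- cells. By rank alone, in lists of unequal length, the cell types overlapped (21196, 14619 and 11637 against 15366, 10577 and 12278), and the height was not tested. Of the 3 intron regions, at 1.34, 2.37 and 9.80 kb, each was called in the same 3 later Sox2-EGFPhigh+ samples and in no Sox2-EGFP- sample. Mean percentiles were 34.9 ± 2.60, 56.4 ± 33.7 and 57.6 ± 4.50 (SD, n = 3). The region 22.5 kb upstream had Sox2-EGFP- peaks alone, at 80.2 (E14.5) and 86.8 (E16 replicate 2).

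Fabp7, on chromosome 10, had 2 regions and no peak in Sox2-EGFP- cells. The region at its start site was called in the 2 longest lists alone, at percentiles 74.4 and 94.5. The region 41.0 kb upstream was called in E14.5 replicate 1 (66.5) and E16 replicate 1 (79.8). No peak of Fabp7 was among the 20000 highest of any list, so a difference between cell types was not detectable in lists of equal length.

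S100a1 had 1 region, chr3:90317014-90318994, which it shares with the neighbouring gene S100a13. It held 14 peaks, and the cell types differed in where their summits fell. The 7 summits nearest to S100a1 came from the 4 later Sox2-EGFPhigh+ samples and no Sox2-EGFP- sample. The 7 nearest to S100a13 came from the 2 E16 Sox2-EGFPhigh+ samples and all 3 Sox2-EGFP- samples. Main summits of the Sox2-EGFPhigh+ samples lay 35, 46 and 45 bp downstream of the S100a1 start site and, in E14.5 replicate 2, at -20 bp. Main summits of the Sox2-EGFP- samples lay at -479 bp at E14.5 and at -518 and -472 bp at E16. Lower Sox2-EGFP- summits lay closer at E16, at -48 and -95 bp. The E16 Sox2-EGFPhigh+ samples also had lower summits at -497 and -504 bp, so the positions were partly shared. The start sites of both genes are close, so for summits near them a small shift decided the gene, and the shift was not tested. The rule first used took the gene of most of a region's peaks, with ties to the nearer start site. With 7 peaks for each gene this region was a tie, which went to S100a13, and S100a1 had 0 regions.

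**Figure D4:**
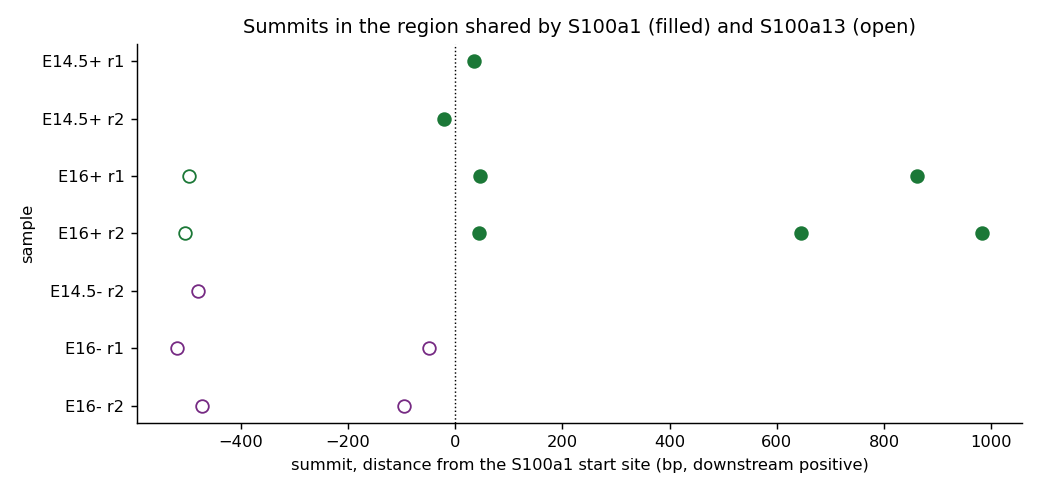
Summits in the region shared by S100a1 and S100a13 in each sample, as the distance from the S100a1 start site in bp (downstream positive). Filled circles are nearest to S100a1, open circles to S100a13; green is Sox2-EGFPhigh+, purple Sox2-EGFP-. No filled circle is purple.

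Height could be compared between cell types where every E14.5 and E16 sample had a peak, which held for 12714 regions, 4 of them near listed genes. The comparison used limma on normal scores of the ranks within each sample, with positive values for higher peaks in Sox2-EGFPhigh+ cells. None of the 4 passed an adjusted p of 0.05, against 2.69% of all such regions (342, of which 257 were higher and 85 lower in Sox2-EGFPhigh+ cells; 1770 at an unadjusted p under 0.05). The region 50.5 kb into Slc1a3 had the largest difference of the 4. Its percentiles in the full lists were 16.3 and 34.9 at E14.5 and 22.9 and 26.4 at E16 in Sox2-EGFPhigh+ cells, and 48.1, 89.9 and 89.9 in Sox2-EGFP- cells. Ranked among the 12714 regions the groups overlapped, and the score difference was 1.11 (SE 0.378, limma adjusted p = 0.135). Without the E14.5 Sox2-EGFP- sample the adjusted p was 0.0408, and over all alternatives it ran from 0.0408 to 0.442. The start sites of Slc1a3 (-0.304) and Cdh4 (-0.013) had limma adjusted p values of 0.814 and 0.993. The fourth region is that of S100a1, where the highest Sox2-EGFP- peaks were nearest to S100a13, so its value compares different summits and is not given. The count of 342 was 173 without E14.5 Sox2-EGFPhigh+ replicate 1, 597 without its replicate 2 (314 higher, 283 lower), 176 without E16 Sox2-EGFPhigh+ replicate 2 and 210 without E16 Sox2-EGFP- replicate 1. By rank of fold enrichment it was 100 (89 higher, 11 lower), at E16 alone 146 (74 and 72), and among regions with a peak in at least 1 sample 9709 (4515 and 5194). The excess of higher regions thus depended on the samples and regions used.

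**Figure D5:**
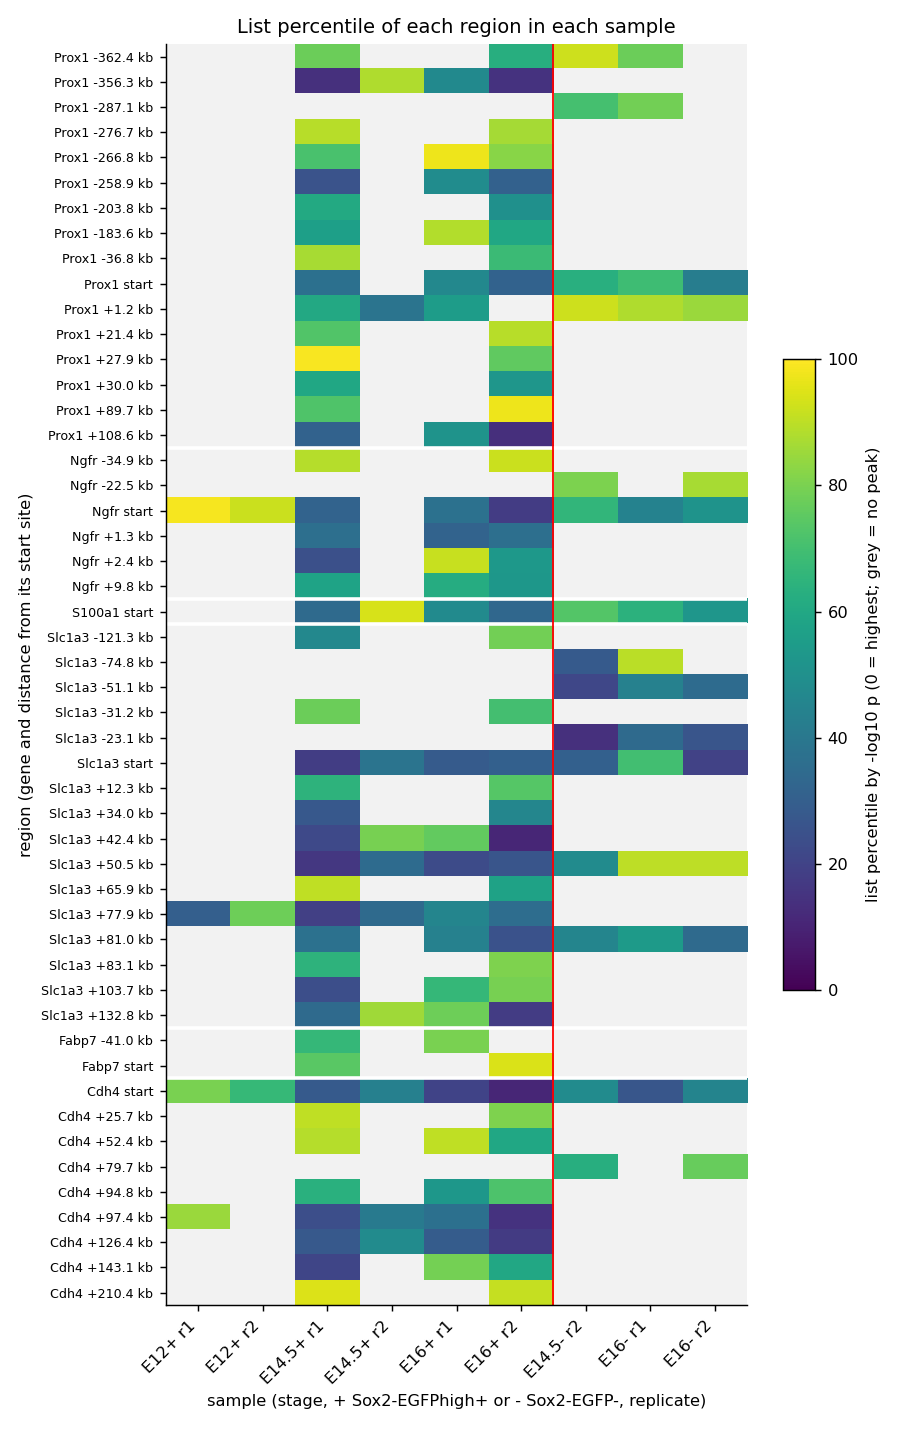
List percentile by −log10 p of the 50 regions in the 9 samples (0 is the highest peak of a list, pale grey no peak), with Sox2-EGFP- samples right of the red line. Filled cells are densest in the columns of the 2 longest lists, and the regions 23.1 and 51.1 kb upstream of Slc1a3 are filled in the 3 Sox2-EGFP- columns alone.

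Stages could be compared within Sox2-EGFPhigh+ cells at the 5719 regions with a peak in all 6 samples. By limma 0 of them (0%) passed an adjusted p of 0.05, with 782 at an unadjusted p under 0.05. The count was 110 without E12 replicate 1, 305 without E12 replicate 2 and 1 without E14.5 replicate 2. With 1 E12 sample left, limma takes the spread from the other stages, and the lone sample is assumed to vary like them. Of the listed genes, 2 regions entered. The one 77.9 kb downstream of the Slc1a3 start site had a score difference of 0.98 toward E12 (SE 0.484, limma adjusted p = 0.379), which was 0.398 without E12 replicate 1. Its percentiles among shared regions were 52.1 and 84.7 at E12 and 79.6 to 98.4 later, so the stages overlapped. The Cdh4 start site differed by 0.045 (adjusted p = 0.971).

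Genes most alike in the share of their regions called in each of the 9 samples were found by Euclidean distance among the 2342 genes with at least 8 regions (2343 for Ngfr, itself below that number). For Prox1 they were Ky (0.0884), Zfp536 (0.118) and 1700057K13Rik (0.12), where the median over all genes was 0.36. For Slc1a3 they were Myc (0.0848), 1810013D10Rik (0.116) and Atoh1 (0.116), with a median of 0.415. For Cdh4 they were Ttc34 (0.143), Map3k4 (0.146) and Fat1 (0.147), with a median of 0.412. Ngfr was less closely matched, by Mocs1 (0.224), Ccdc121 (0.25) and Rapgef1 (0.252), with a median of 0.5.

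A wider list of 22 supporting cell genes had 219 regions, 76.7% with Sox2-EGFPhigh+ peaks alone (65.5% of all regions) and 3.20% with Sox2-EGFP- peaks alone (5.63% of all). In 7 of the 22 (13.9% of all genes), every later Sox2-EGFPhigh+ sample had more regions than every Sox2-EGFP- sample, and the median difference was 3.25 regions (0.75 over all genes). Sox2, the gene the sort followed, had the most regions (34), with 34, 7, 14 and 31 called in later Sox2-EGFPhigh+ samples and 3, 3 and 4 in Sox2-EGFP- samples. An unadjusted p under 0.05 was found for 1 gene of the 22, near the 4.91% of all genes, which is no result about the list. Named after its values were seen, it was the connexin gene Gjb6, with 5, 3, 3 and 5 against 1, 1 and 1 (two-sided exact permutation p = 0.0286, adjusted p = 0.4275). The peak lists measure no expression, so whether the sorted cells express the listed genes was not analysed here.

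Slc1a3, Fabp7 and Ngfr are also genes of glia, so glial loci were counted in the same samples, from which the authors had dissected nerve tissue with its Sox2-EGFP glia away. The 8 glia and Schwann cell genes had 24 regions, 75.0% with Sox2-EGFPhigh+ peaks alone (65.5% of all regions) and none with Sox2-EGFP- peaks alone (5.63% of all). Regions with a peak numbered 4 and 1 at E12, 24 and 10 at E14.5 and 16 and 24 at E16 in Sox2-EGFPhigh+ cells, and 5, 5 and 5 in Sox2-EGFP- cells. Foxd3 had the most (6) and Cdh19 had 0. In 3 of the 8 genes (13.9% of all genes), every later Sox2-EGFPhigh+ sample had more regions than every Sox2-EGFP- sample. By the exact permutation test 2 of the 8 had an unadjusted p under 0.05 (4.91% of all genes) and 0 an adjusted one. The highest counts were those of the 2 longest lists. The count of 10 in E14.5 replicate 2 came from a list of 22962 peaks. The Sox2-EGFP- lists held 23302, 23848 and 23899 peaks. Glial loci were not compared in lists of equal length, and the cause of the counts was not tested.

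Other cell types were counted in the same way. Prosensory genes (8) had 118 regions, 79.7% with Sox2-EGFPhigh+ peaks alone and 5.08% with Sox2-EGFP- peaks alone, and hair cell genes (5 of 6 in the annotation) had 35, at 82.9% and 5.71%. Otic mesenchyme went the other way. Its 6 genes had 29 regions, 17.2% with Sox2-EGFPhigh+ peaks alone and 44.8% with Sox2-EGFP- peaks alone. Regions with a peak numbered 16, 4, 10 and 14 in later Sox2-EGFPhigh+ samples and 23, 23 and 20 in Sox2-EGFP- samples, so the summed counts did not overlap. Gene by gene, 3 of the 6 had fewer regions in every later Sox2-EGFPhigh+ sample than in every Sox2-EGFP- sample. By the exact permutation test 0 had an adjusted p under 0.05. The authors had reported greater accessibility in Sox2-EGFP- cells at some of these genes from the same samples, so the list is not independent of the data. Neuronal genes had 25 regions (68.0% and 4.0%) and roof epithelium genes 17 (76.5% and 11.8%). Macrophage genes (4 of 5 in the annotation) had 6 (83.3% and 0%), endothelial genes 30 (70.0% and 13.3%) and melanocyte genes 38 (84.2% and 2.63%). Few loci made some of these shares. Only 2 of the 4 melanocyte genes had a region, and 17 of the 30 endothelial regions were at Cdh5. In most of these lists the share with Sox2-EGFPhigh+ peaks alone was above the 65.5% of all regions, whatever the cell type. In bulk samples, fewer cells of a type and less signal per cell cannot be told apart.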

How the data were processed

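ATAC-seq peak lists of 6 Sox2-EGFPhigh+ and 3 Sox2-EGFP- samples were used. Per the authors, Trim Galore was used for trimming and Bowtie2 for alignment to mm9, duplicate and mitochondrial reads were taken out, and MACS2 (shift -100, extension 200) called peaks in each sample, of which those replicated within a cell type were kept. Versions were not given in the sources used here. The deposited values of each peak are a score, a fold enrichment (ratio) at the summit, and -log10 p and -log10 q, all computed by the authors with MACS2. Depth per sample is not in the lists and was not used here.

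Peaks on chromosomes 1 to 19, X and Y (286577) were merged into regions and assigned to the nearest of 51720 protein-coding transcript starts of GENCODE vM1. A region belongs to every gene that one of its summits is nearest to. This rule was chosen after seeing the data. The first took the gene of most of a region's peaks, with ties to the nearer start site. By a tie it left S100a1 without a region. The genes and lists were chosen with earlier results of these data known. Counts per gene were compared by a two-sided exact permutation test, and peak heights by limma, each with Benjamini-Hochberg adjustment over all genes or regions. Named regions are those over a start site, up to 3 per gene without a Sox2-EGFP- peak that were called in most Sox2-EGFPhigh+ samples with the best mean percentile, those with Sox2-EGFP- peaks alone, and distal ones called in all samples. From the wider supporting cell list and the cell type lists (prosensory, hair cell, glia, neuron, mesenchyme, roof, macrophage, endothelium and melanocyte), the genes with most and fewest regions may be named. Regions or genes outside this rule are marked in the text. Some results on single genes and on 1 searched word are not reported here.

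Alternatives were equal numbers of the highest peaks, a minimum -log10 q of 5, other merging and distance limits, all transcripts, all 9 samples in the counts per gene (E12 included), sequencing batch 2 alone (without the E16 replicates numbered 1), fold enrichment or log2 of the -log10 p in place of ranks, added terms for stage, batch or replicate block, E16 alone, regions with a peak in at least 1 sample, and leaving out each sample. Chosen after seeing the data were leaving out the 2 longest lists, the class from a gene's own peaks, and the first rule of assignment. Scripts were tested on simulated data. Tools were Python 3.11.15, NumPy 2.4.6, pandas 2.3.3, SciPy 1.17.1, matplotlib 3.10.9, pysam 0.24.0, bedtools 2.31.1, samtools 1.23.1, R 4.3.3 and limma 3.58.1.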

Additional observations from a re-analysis of the deposited data

How the results depend on the processing

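The share of regions with Sox2-EGFPhigh+ peaks alone, 70.0%, was 50% (all regions 35.4%) with the 20000 highest peaks of each later list and 37.5% (all regions 34.6%) with the 7500 highest of every list. It was 57.1% (all regions 47.5%) without the 2 longest lists, chosen after seeing the data, and 70.0 to 71.7% leaving out 1 sample. It fell below the share of all regions within 100 kb (62.9%, all regions 65.5%) and with all transcripts (64.9%, all regions 65.5%). By the peaks nearest to each listed gene alone, also chosen after seeing the data, it was 72%. Under equal list lengths the count differences turned for Ngfr (-0.333, 20000 highest), Slc1a3 (-1.75, 7500 highest) and Cdh4 (-0.083, 7500 highest). Fabp7 gave no value in either and Prox1 none in the shorter one. Leaving out 1 sample, the differences were 4.667 to 8.667 for Prox1, 4 to 5.667 for Cdh4, 2.667 to 5.333 for Slc1a3, 1.333 to 3 for Ngfr and 0.667 to 1.333 for Fabp7. With E12 included they were 3 for Prox1, 3 for Cdh4, 1 for Slc1a3, 1 for Ngfr and 0.667 for Fabp7, and in batch 2 alone 7.333, 4.333, 4.833, 1.333 and 1. Without 1 later sample the smallest p of the exact permutation test is 0.0667 or 0.1, so no gene could pass.

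The 342 regions that differed in height by limma were 100 by fold enrichment, 146 at E16 alone, 9709 among regions with a peak in at least 1 sample, and 173 to 597 leaving out 1 sample. The E12 comparison had 0 to 305. The Cdh4 start site turned to 0.217 in the replicate block, 0.074 with stage, 0.024 with batch and 0.168 at E16 alone, and ran from -0.155 to 0.217 leaving out 1 sample. The Slc1a3 start site ran from -0.813 to 0.025. Against E12 the region 77.9 kb downstream of the Slc1a3 start site ran from 0.398 to 1.363 leaving out 1 sample, and the Cdh4 start site was -0.098 by fold enrichment and -0.466 to 0.331 leaving out 1 sample. The cause of these changes was not tested.

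With the replicate block, which pairs samples of the same stage and number, 235 regions differed. By counts no gene could pass, since 3 pairs allow no exact p under 0.25, and the differences were 4.333 for Prox1, 4 for Cdh4, 2.667 for Slc1a3, 1.333 for Ngfr and 0.667 for Fabp7. Some Sox2-EGFP- cells were collected alongside the Sox2-EGFPhigh+ cells and the E16 replicates numbered 1 share a sequencing batch, but the labels do not tie a number to a litter. Same-numbered pairs correlated at -0.0381, 0.0562 and 0.0005 over 56637 regions, and not every sample correlated best with its own number. List length was not set against depth here.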
